A study of Homo sapiens with 8 samples.

Results

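The genes described here are 41 interferon response genes, a set that cells switch on when interferon reaches its receptors. They were found on the arrays as every probe set annotated to exactly 1 of the 41 symbols, and where a gene had several, the brightest on average stood for it. Of the 41 genes, 40 had such a probe set, out of 19775 genes that had one. DDX58, which encodes the RNA sensor RIG-I, is listed on the array under its newer symbol RIGI and was matched through that synonym. STAT2 was not analysed here. The 40 genes had 72 probe sets in all, and 23 genes had more than 1. To be tested, a gene's probe set had to exceed the median of 2 or more of the 8 arrays, which 37 of the 40 did. IFI27, IFI44L and CXCL10 stayed below the median on every array and are described by their values.

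All RNA came from ALL-SIL, an established line of human T-cell acute lymphoblastic leukemia in which the homeobox oncogene TLX1 is active, and was hybridised to single-colour arrays. In the TCR experiment, ALL-SIL cells carrying the TCRα/β-GFP vector were either kept without stroma (group no_TCR_activation) or grown with OP9-DL1 mouse stroma, which displays a Notch ligand, for 48 h (group TCR_activation). The protocols name both a Jurkat-derived and a murine receptor vector, and the sample labels name TCRα/β-GFP. In the hairpin experiment, ALL-SIL cells were transduced with TLX shRNA (group shRNA_TLX1) or with the shRNA-pLKO.1-puro control vector (group shRNA_control) and selected with puromycin. Each of the 4 groups had 2 arrays, here called replicates 1 and 2. All cells came from 1 line and all had received a vector, so no untransduced culture is among the groups, and no array holds TCR-negative cells on stroma. Whether replicates were separate cultures is not said in the labels, so a p-value here reflects the spread between arrays only, and that spread may be technical.

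Type I interferons act through surface receptors that activate the kinases JAK1 and TYK2. These phosphorylate STAT proteins, which with IRF9 bind the interferon-stimulated response element (ISRE) in the promoters of antiviral genes. Interferon gamma acts through STAT dimers on another element, the gamma-activated site (GAS), found at genes such as IRF1 and GBP2. The proteins made in response sense viral RNA (RIG-I and MDA5, the product of IFIH1), degrade it or block its translation (the OAS, IFIT and EIF2AK2 products), trap virions (BST2) or attach the ubiquitin-like ISG15 to other proteins (HERC5). Unstimulated cells keep many of these genes at a basal level, and the level differs between cell types.

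The ISRE sequences were sought in the 250 bases before each gene's start in the RefSeq promoter table (GRCh38.p14), where 33 of the 41 genes had an entry. The ISRE core, which is GAAA, any 2 bases and GAAA again, on either strand, occurred in 18 of the 33 windows (54.5%), against 839 of 27305 windows of all genes (3.07%), with overlapping matches allowed. The GAS core TTCNNNGAA, searched separately and reading the same on both strands, occurred in 8 of the 33 (24.2%), against 6.78% of all. The windows of 4 genes on which the comparisons below turn are shown 5′ to 3′ along the gene's strand, with the ISRE core matches in capitals.
ISG20, chr15:88638766-88639015, plus strand: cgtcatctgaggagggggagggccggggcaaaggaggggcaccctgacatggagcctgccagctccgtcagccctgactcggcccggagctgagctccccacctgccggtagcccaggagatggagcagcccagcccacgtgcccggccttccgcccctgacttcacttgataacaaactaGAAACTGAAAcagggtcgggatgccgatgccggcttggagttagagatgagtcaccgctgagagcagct
IFIT1, chr10:89392373-89392622, plus strand: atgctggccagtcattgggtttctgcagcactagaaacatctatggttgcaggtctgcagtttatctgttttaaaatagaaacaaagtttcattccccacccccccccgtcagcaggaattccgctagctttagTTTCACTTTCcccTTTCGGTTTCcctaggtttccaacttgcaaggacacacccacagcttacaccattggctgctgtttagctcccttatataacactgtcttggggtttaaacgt
IFIH1, chr2:162318685-162318934, minus strand: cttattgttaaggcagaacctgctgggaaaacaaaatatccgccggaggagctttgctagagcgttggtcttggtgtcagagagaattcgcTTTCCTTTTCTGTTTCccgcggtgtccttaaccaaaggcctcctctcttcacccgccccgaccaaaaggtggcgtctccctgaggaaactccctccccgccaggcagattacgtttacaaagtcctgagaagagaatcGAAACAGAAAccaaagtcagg
IFI44, chr1:78649539-78649788, plus strand: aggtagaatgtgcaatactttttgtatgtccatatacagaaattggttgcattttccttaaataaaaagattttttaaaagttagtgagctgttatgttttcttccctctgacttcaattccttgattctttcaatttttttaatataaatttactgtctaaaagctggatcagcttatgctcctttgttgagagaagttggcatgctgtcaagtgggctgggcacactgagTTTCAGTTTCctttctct
The ISG20 match began 69 bases before the gene's start. IFIT1 had 2 matches, the first 116 bases before the start. IFIH1 had 3, the first 159 and the last 21 bases before the start. The IFI44 match lies 18 bases before the start. The windows of MX1, RSAD2 and SAMD9L held no match, which says only that these letters are not in these windows.

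Some facts of the whole set of arrays bear on the results. Over all probe sets, arrays of different experiments correlated at 0.942 to 0.951, and arrays of the same experiment at 0.986 to 0.998. The median SD between replicates was 0.06 and 0.04 (log2) in the no_TCR_activation and TCR_activation groups and 0.17 and 0.11 in the shRNA_control and shRNA_TLX1 groups. For actin, a measure of RNA quality, the 3′ probe set exceeded the 5′ one by 2.30 to 2.71 in the TCR experiment but by 0.57 to 0.83 with the hairpins. TLX1 itself read 8.66 and 8.27 with the control vector, above the 7.98 and 7.88 with its own hairpin (log2 change -0.53, limma adjusted p = 0.334). All 16 T-lineage markers, among them CD3D, LCK and CD1A, were bright enough to be tested. In the TCR comparison 6 chromosome Y genes were called lower with a median log2 change of -4.37, so a difference between the cells of those groups cannot be told apart from the co-culture.

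The first comparison asked whether these genes differed between the TCR_activation group, grown with stroma, and the no_TCR_activation group, kept without it. None of the 37 tested interferon response genes passed the threshold (limma adjusted p under 0.05), where 81 of 13102 genes, or 0.618%, did. At an unadjusted p under 0.05 there were 4 of the 37 (10.8%, against 7.42% of all genes): IFIT1 was higher after co-culture (1 gene, against 3.98% of all genes), but it was bright enough to be tested only through the co-cultured arrays, and ISG20, IFIT2 and IFIH1 were lower (3 genes, against 3.43%). The changes of the 37 lay between -0.44 and 0.48 on the log2 scale, with a median of -0.07 against 0.02 for all genes, and 13 of the 37 were above 0 (35.1%, against 55% of all genes). None reached 2-fold, where 0.779% of all genes did. Without no_TCR_activation replicate 1 the median was -0.02, with 17 genes above 0 (against 52.8% of all genes), and without replicate 2 it was -0.08, with 10 above 0 (against 55.9%). The 95% interval of each of the 37 changes lay inside a 2-fold change in either direction, as it did for 95.6% of all genes. The median of the intervals' half-widths was 0.38.

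**Figure D1:**
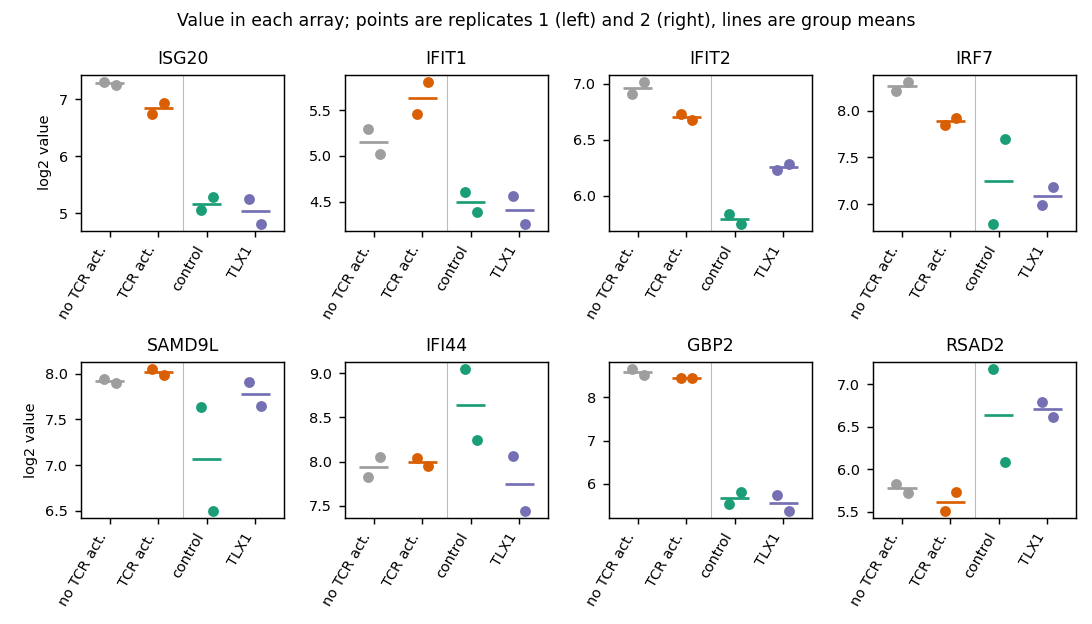
Log2 values of 8 interferon response genes in each of the 8 arrays, with a panel for each gene. Points are replicates 1 (left) and 2 (right) and horizontal lines are group means. ISG20 is lower and IFIT1 higher in both TCR activation arrays, SAMD9L is lowest in shRNA_control replicate 2 (6.50), and GBP2 lies between 8.45 and 8.66 in the TCR experiment but between 5.37 and 5.82 with the hairpins.

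ISG20, an exonuclease that degrades viral RNA, read 7.31 and 7.25 without co-culture and 6.75 and 6.94 after it, so the groups did not overlap. Its change was -0.44 (95% interval -0.82 to -0.05, limma adjusted p = 0.603), and its second probe set differed by -0.52. IFIH1 read 6.98 and 6.90 against 6.45 and 6.63, a change of -0.40 (adjusted p = 0.671). The other RNA sensor, DDX58, read 7.40 and 7.58 against 7.42 and 7.29, and its 3 probe sets gave changes of -0.27 to -0.11. The DDX58 probe set used here and that of IFI16 carry the _x_at suffix, which marks probes that can bind other transcripts.

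The IFIT genes, which encode proteins that hold back foreign RNA from translation, differed in both directions. IFIT1 read 5.29 and 5.02 without co-culture and 5.46 and 5.81 after it (change 0.48, 95% interval 0.07 to 0.89, limma adjusted p = 0.568). It was above the array median only in the 2 TCR_activation arrays, the group where it read higher, and the stricter filter on dim probe sets leaves it out. IFIT3 stood at 7.33 ± 0.01 and 7.61 ± 0.03 (SD, n = 2 arrays each). IFIT2 read 6.91 and 7.02 against 6.73 and 6.68, a change of -0.26 in the probe set used and of 0.18 in its second one. IFIT5 differed by -0.11.

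Among the transcription factors, IRF7, the regulator that amplifies type I interferon production, read 8.21 and 8.31 without co-culture and 7.85 and 7.92 after it. Its change of -0.38 had an adjusted p of 0.906 by limma over all 8 arrays, which share 1 estimate of the spread. With the control hairpin IRF7 read 6.79 and 7.70. IRF9, the DNA-binding partner of the STATs, stood at 8.22 ± 0.04 and 8.24 ± 0.04, and IRF1, a target of interferon gamma, at 9.26 ± 0.04 and 9.20 ± 0.00 (SD, n = 2 arrays each). IRF9 thus read the same in both groups to within its replicates, and the 2 IRF1 probe sets gave changes of -0.06 and 0.05.

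Small differences were measured in the ISG15 system. ISG15 itself read 8.66 and 8.55 without co-culture and 8.54 and 8.63 after it (change -0.02, 95% interval -0.61 to 0.57), and the groups overlapped. Its ligase HERC5 differed by 0.02, the related HERC6 by -0.22 (5.59 and 5.66 against 5.34 and 5.48) and its protease USP18 by -0.27. The ADP-ribosyltransferase genes PARP9 and PARP14 differed by -0.07 and -0.13, and DTX3L, the ubiquitin ligase that partners PARP9, by 0.01. Second kept probe sets gave 0.25 for PARP9 and 0.16 for PARP14, the latter below the array median throughout the TCR experiment.

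In the probe sets used, the remaining antiviral genes showed differences of the same small size. The OAS genes, which make the signal that activates RNase L, differed by -0.20 (OAS3) to 0.02 (OAS2), and the translation-blocking kinase gene EIF2AK2 by 0.05. Second kept probe sets gave 0.27 for OASL, 0.09 for OAS1 and -0.09 for OAS2. The GTPase MX2 read 10.76 and 10.78 against 10.54 and 10.57 (change -0.22, limma adjusted p = 0.708), while MX1 differed by -0.07, GBP1 by -0.02 and GBP2 by -0.14. The second kept GBP2 probe set differed by -0.48. IFITM1, which blocks viral entry, read 13.32 and 13.31 without co-culture and 13.31 and 13.35 after it. BST2 differed by 0.07 and IFI35 by 0.30, from 7.24 and 7.27 to 7.53 and 7.57. The proapoptotic XAF1 differed by -0.30, and by -0.04 in its second kept probe set. IFI6, an interferon-induced membrane protein gene, differed by 0.17. Of the dim genes, IFI44L read 4.52 and 4.52 against 4.11 and 4.03, and CXCL10, an interferon gamma-induced chemokine, 4.58 and 4.71 against 4.91 and 4.95. Over all 37 genes, 14 were lower in both co-cultured arrays than in either control array (37.8%, against 25.4% of all genes) and 6 were higher in both (16.2%, against 32%).

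Fitting just the 4 arrays of the TCR experiment gave a median interval half-width of 0.18, and 3 of the 37 genes passed (8.11%, against 6.61% of all genes): IRF7 (limma adjusted p = 0.0420) and ISG20 (0.0483) were lower (2 genes, against 3.05% of all genes) and IFI35 (0.0480) was higher. With array weights 6 passed (16.2%, against 10.3% of all genes), these 3 with IFIH1, IFIT2 and IFIT3, and 4 of the 6 were lower (10.8%, against 4.63%). Over the 17 alternative settings the limma adjusted p ranged from 0.0247 to 1 for ISG20, from 0.0410 to 1 for IRF7 and from 0.0348 to 1 for IFI35.

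**Figure D2:**
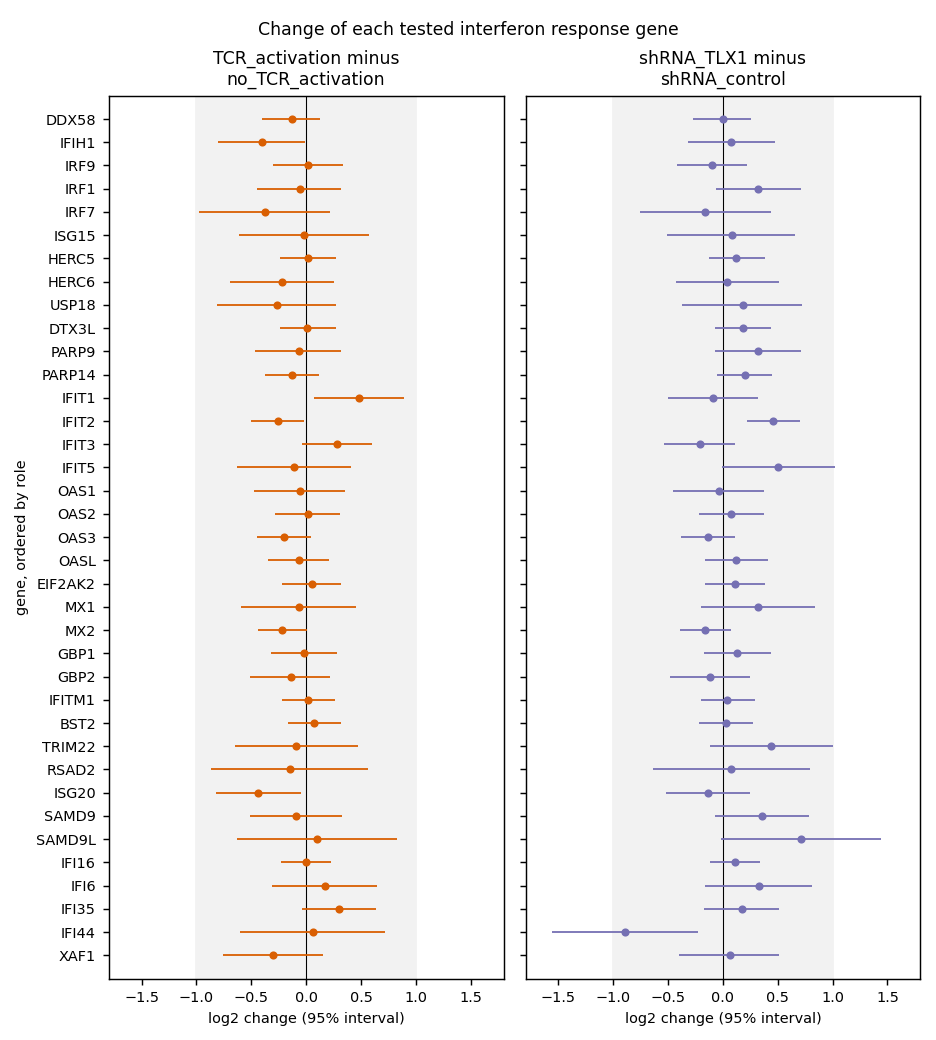
Log2 change of each of the 37 tested genes in the TCR comparison (left) and the TLX1 hairpin comparison (right), with 95% intervals from the model over all 8 arrays. The shaded band marks changes under 2-fold. All intervals on the left lie inside it, and those of IFI44, IFIT5 and SAMD9L on the right reach outside.

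The hairpin experiment asked whether these genes depend on TLX1. Again none of the 37 genes passed the threshold (limma adjusted p under 0.05), where 12 of 13102 genes, or 0.0916%, did. At an unadjusted p under 0.05, IFIT2 was higher and IFI44 lower with the TLX1 hairpin, 2 of 37 (5.41%, against 8.98% of all genes, or 4.21% higher and 4.77% lower). The changes lay between -0.89 and 0.71, with a median of 0.08 against 0.00 for all genes, and 26 of the 37 were above 0 (70.3%, against 49.6%). Without shRNA_control replicate 1 the median was 0.14, with 25 genes above 0 (against 46.6% of all genes). Without replicate 2 it was 0.04, with 24 above 0 (against 53.4%). None reached 2-fold, where 0.74% of all genes did. In 8 genes both TLX1 hairpin arrays were above both control arrays (21.6%, against 14.1% of all genes), and in 3 below (8.11%, against 14.6%). The 95% interval lay inside a 2-fold change for 34 of the 37 genes (91.9%, against 94.8% of all genes), and for 33 when the 4 hairpin arrays were fitted alone (89.2%, against 90.8%). In that limma fit 0 of all 13102 genes passed, and with array weights 1 (0.00763%), which was no member of the set.

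IFIT2 read 5.84 and 5.75 with the control hairpin and 6.23 and 6.28 with the TLX1 hairpin, with no overlap (change 0.46, 95% interval 0.22 to 0.70, limma adjusted p = 0.232, range 0.0238 to 1 over the alternatives). Its second probe set differed by -0.05. IFIT5 read 7.53 and 6.98 against 8.02 and 7.50 (change 0.50, adjusted p = 0.566), so the groups overlapped. IFI44, whose product is induced by type I interferon, read 9.05 and 8.24 against 8.06 and 7.44 (change -0.89, 95% interval -1.56 to -0.23, limma adjusted p = 0.400). The second IFI44 probe set differed from the first by the same amount on every array, so it adds no independent reading.

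The change of IFIT2 was -0.26 in the TCR comparison and 0.46 with the TLX1 hairpin, a difference of -0.72 (limma adjusted p = 0.151). For IFI44 the changes were 0.06 and -0.89, a difference of 0.95 (adjusted p = 0.568). Of the 37 genes, 0 passed in this test of the difference, where 50 genes, or 0.382%, did, and 3 had an unadjusted p under 0.05 (8.11%, against 8.74% of all genes): IFIT3 and IFI44 above 0 (against 4.65%) and IFIT2 below (against 4.09%). The difference was above 0 for 6 of the 37 (16.2%, against 53.8% of all genes) and 2-fold or more for 0 (against 1.59%). Without shRNA_control replicate 1, 5 passed (13.5%, against 6.93% of all genes), all below 0: IFIT2, RSAD2, SAMD9L, TRIM22 and XAF1.

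SAMD9L, a growth-restraining antiviral protein gene, had the largest positive change in the probe sets used, and this change rested on 1 array. It read 7.64 and 6.50 with the control hairpin and 7.91 and 7.65 with the TLX1 hairpin (change 0.71, 95% interval -0.02 to 1.44, limma adjusted p = 0.566). Without shRNA_control replicate 1 the change was 1.28 (adjusted p = 0.00288), and without replicate 2 it was 0.14 (adjusted p = 0.645), in a range of 0.00288 to 1 over the 17 alternative settings. The other kept SAMD9L probe sets gave smaller changes over all arrays, of 0.25 and 0.26. The SAMD9L paralog SAMD9 read 8.11 and 7.58 against 8.27 and 8.14. TRIM22, a ubiquitin ligase with antiviral activity, read 9.49 and 8.68 against 9.66 and 9.40, and ISG15 9.07 and 8.20 against 8.84 and 8.59. In all 4 genes shRNA_control replicate 2 was the lowest of the hairpin arrays.

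This array stood low for many of the genes. It was the lowest of the 4 hairpin arrays for 18 of the 37 genes (48.6%, against 28.6% of all genes). The lowest array was shRNA_control replicate 1 for 9 (against 28.2%), shRNA_TLX1 replicate 1 for 1 (against 22.4%) and shRNA_TLX1 replicate 2 for 9 (against 20.8%). Replicate 1 of the control was above replicate 2 for 22 of the 37 (59.5%, against 44.3%). By 0.5 or more it was above in 12 (32.4%, against 9.84% of all genes) and below in 2 (5.41%, against 10.4%). The largest gaps were those of SAMD9L (1.14), RSAD2, the antiviral radical SAM enzyme viperin (1.10), ISG15 (0.87), TRIM22 (0.81), IFI44 (0.80) and MX1 (0.72). The opposite gaps were those of IRF7 (-0.91) and IFIH1 (-0.52). In the TLX1 hairpin group replicate 1 was above replicate 2 for 27 of the 37 genes (73%, against 48.4%), by at most 0.62, for IFI44. In the TCR experiment the mean level of the 37 genes was 8.03 to 8.14 in all 4 arrays, while it was 7.63 and 7.43 with the control hairpin and 7.70 and 7.55 with the TLX1 hairpin.

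**Figure D3:**
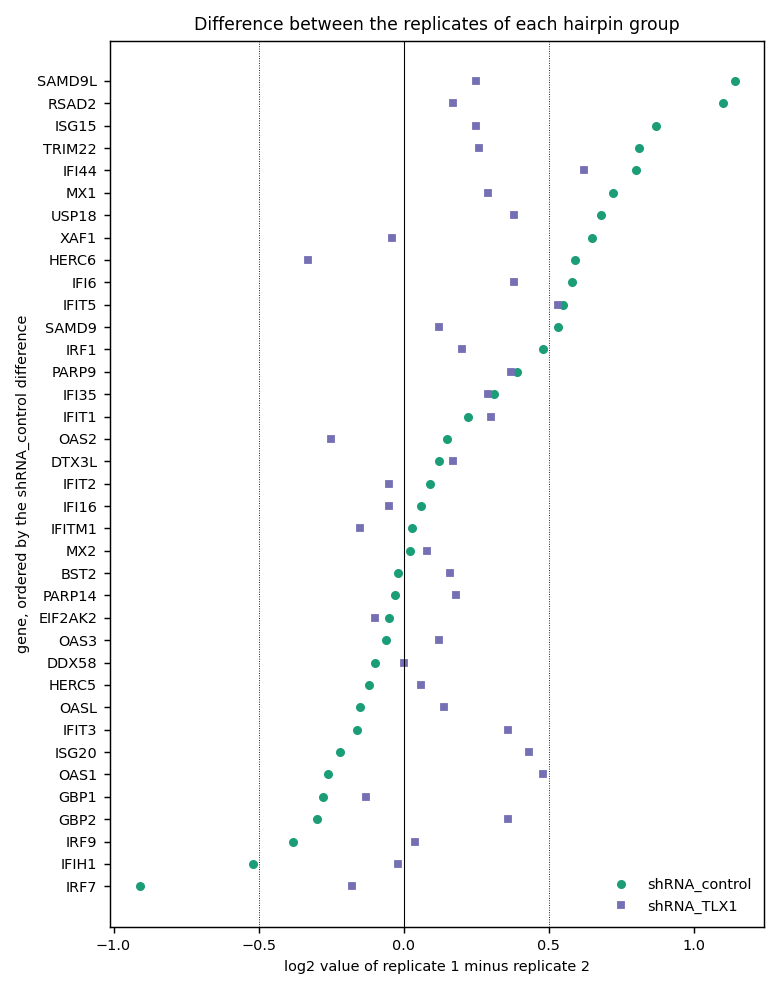
Log2 value of replicate 1 minus replicate 2 for each of the 37 tested genes in the shRNA_control group (circles) and the shRNA_TLX1 group (squares), ordered by the former. Dotted lines mark a difference of 0.5. SAMD9L and RSAD2 differ by more than 1 between the control arrays, and IRF7 differs by -0.91.

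The calls in the hairpin comparison depended on which control array was kept. Without shRNA_control replicate 1, 8 of the 37 genes passed (21.6%, against 13.7% of all genes): SAMD9L, TRIM22, IFIT2, IRF1, MX1, SAMD9 and RSAD2 were higher and IRF7 was lower. Without replicate 2, 0 passed by limma (against 0.29% of all genes). The change of RSAD2 was 0.62 without replicate 1 and -0.47 without replicate 2, that of IRF7 -0.61 and 0.30, and that of MX1 0.68 and -0.04. With 1 control array left, that array is assumed to vary like the other groups.

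**Figure D4:**
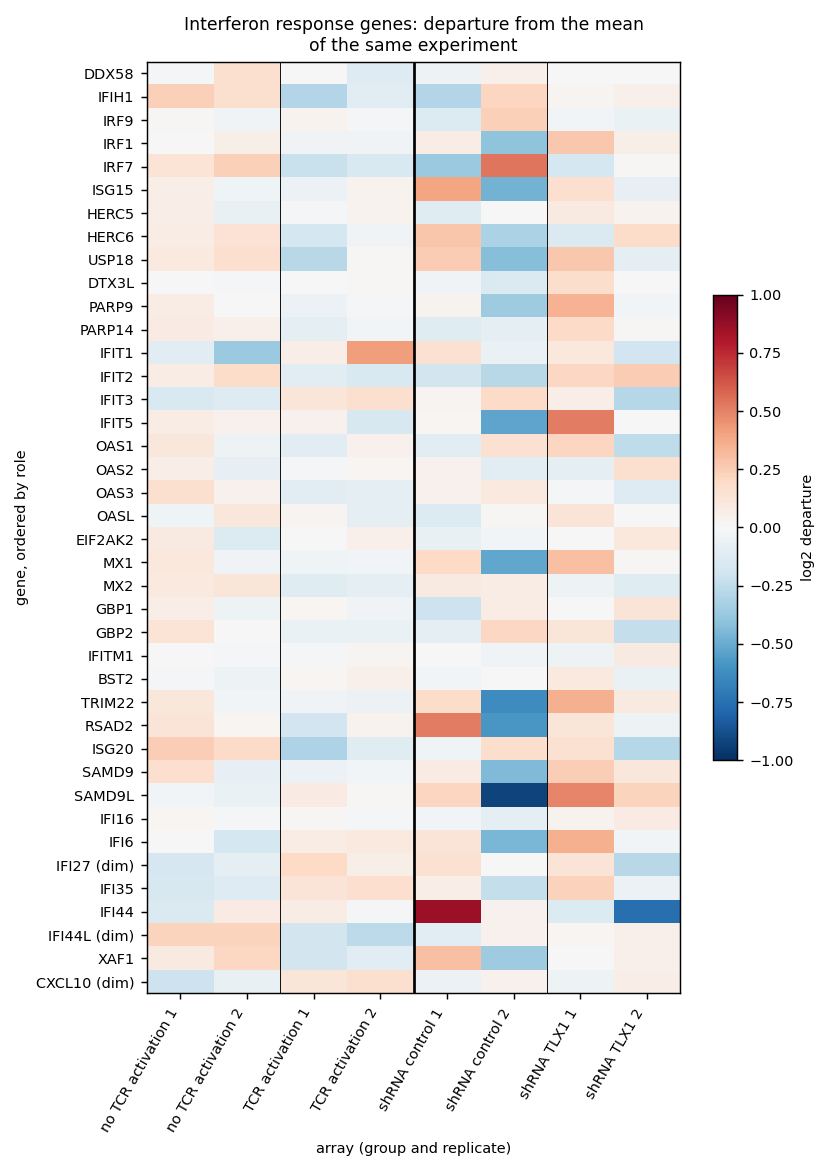
Departure of each gene (rows, ordered by role) from its mean over the 4 arrays of the same experiment, in log2 units, for the 8 arrays (columns). Red is above and blue below that mean, and colours saturate at 1. Departures are paler in the TCR experiment than with the hairpins, with shRNA_control replicate 2 low for SAMD9L, RSAD2, TRIM22 and ISG15.

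The larger difference in these genes lay between the experiments, which is described without a test, since vector, selection, RNA state and experiment cannot be told apart. Of the 37 genes, 24 read lower in all 4 hairpin arrays than in any array of the TCR experiment (64.9%, against 36.9% of all genes) and 3 read higher in all (8.11%, against 17.8%). With the mean of all probe sets of a gene, 19 read lower (51.4%, against 32.7% of all genes). The filter on dim probe sets bears on these counts: of the 24, ISG20, OAS1, OASL, USP18 and IFIT1 were bright enough only through arrays of the TCR experiment, where they read higher. With no such filter, an alternative chosen after seeing the data, 26 of the 40 genes with a probe set read lower (65%, against 33.5% of 19775 genes). The median gap of the 37, hairpin minus TCR experiment, was -0.43, against -0.16 for all genes. A gap of 2-fold or more without overlap was seen downwards for 6 of the 37 (16.2%, against 8.01% of all genes) and upwards for 0 (against 2.34%). The 6 include ISG20 and OAS1, and with no filter on dim probe sets there were 7 of 40 (17.5%, against 6.04%).

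GBP2, a GTPase induced by interferon gamma, read 8.45 to 8.66 in the TCR experiment but 5.37 to 5.82 with the hairpins, a gap of -2.91, and 0.229% of all genes had a gap further down. Its second probe set had a gap of -4.49, but was above the array median only in the TCR experiment and so was kept only through those arrays. ISG20, whose promoter is shown above, read 6.75 to 7.31 and 4.82 to 5.28 (gap -1.96), below the array median in every hairpin array. The GTPases MX2 (gap -1.24) and MX1 (-1.15), OAS1 (-1.15) and IFIH1 (-1.01) followed, and IFI6 had a gap of -0.95 without overlap. OAS1 read 5.60 to 5.82 in the TCR experiment but 4.30 to 4.77 with the hairpins. Its second probe set, also kept only through the TCR experiment arrays, had a gap of -2.05. ISG20, OAS1, OASL and USP18 read above the array median in all 4 TCR arrays and in 0 of the hairpin arrays.

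The 3 genes that read higher in all hairpin arrays were RSAD2, PARP14 and DTX3L. RSAD2 read 5.51 to 5.83 in the TCR experiment but 6.09 to 7.18 with the hairpins (gap 0.97), and PARP14 8.32 to 8.50 and 8.88 to 9.19 (gap 0.58). ISG15 had a gap of 0.08 with overlap, and IFITM1, bright on every array, a gap of -0.22. Of the 20 genes with several probe sets bright enough to test, 6 had probe sets with gaps in both directions: IFIT3, IFIT5, OAS2, EIF2AK2, SAMD9 and IFI16.

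Cell type markers, the line's own among them, were compared in the same way, and their part in the gap between the experiments was not tested. Of the 16 T-lineage markers 7 were lower in all hairpin arrays (against 36.9% of all genes) and 1 higher (against 17.8%). Their median gap was -0.35, against -0.16 for all genes. Their mean levels were 9.53 to 9.60 in the TCR experiment but 8.92 to 9.10 with the hairpins. DNTT among them read 9.47 to 9.76 and 5.81 to 7.29. Of 11 tested fibroblast and stromal markers, 7 were lower in all hairpin arrays (against 36.9% of all genes). The mean level of the 11 was 6.70 to 7.18 in the TCR experiment but 5.89 to 6.10 with the hairpins. Of the 7, ACTA2, BGN, COL3A1 and FN1 were bright enough to be tested only through arrays of the TCR experiment, where they read higher. The filter on dim probe sets thus bears on both this count and this level. COL5A1, COL6A3, SPARC, LUM, POSTN and FAP were too dim to test. Of 8 tested myeloid, B and dendritic markers 6 were lower (against 36.9%), with mean levels of 6.46 to 6.64 and 5.80 to 5.99. Of 4 tested NK markers 3 were lower (against 36.9%), with mean levels of 8.10 to 8.21 and 6.62 to 7.29. GZMB among them read 8.37 to 9.16 and 4.53 to 6.54, and NCAM1 overlapped between the experiments. Of the markers of plasmacytoid dendritic cells, which make interferon, CLEC4C read 3.06 to 3.56, below the median on all arrays. LILRA4 (5.45 to 6.27) and IL3RA (5.61 to 6.09) were above it on all 8. TCF4 was above it only on the 4 TCR experiment arrays, so it too was tested only through the experiment where it read higher. Within the TCR experiment the mean levels of the stromal markers overlapped between the groups, at 6.83 and 7.18 without co-culture and 7.11 and 6.70 after it.

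**Figure D5:**
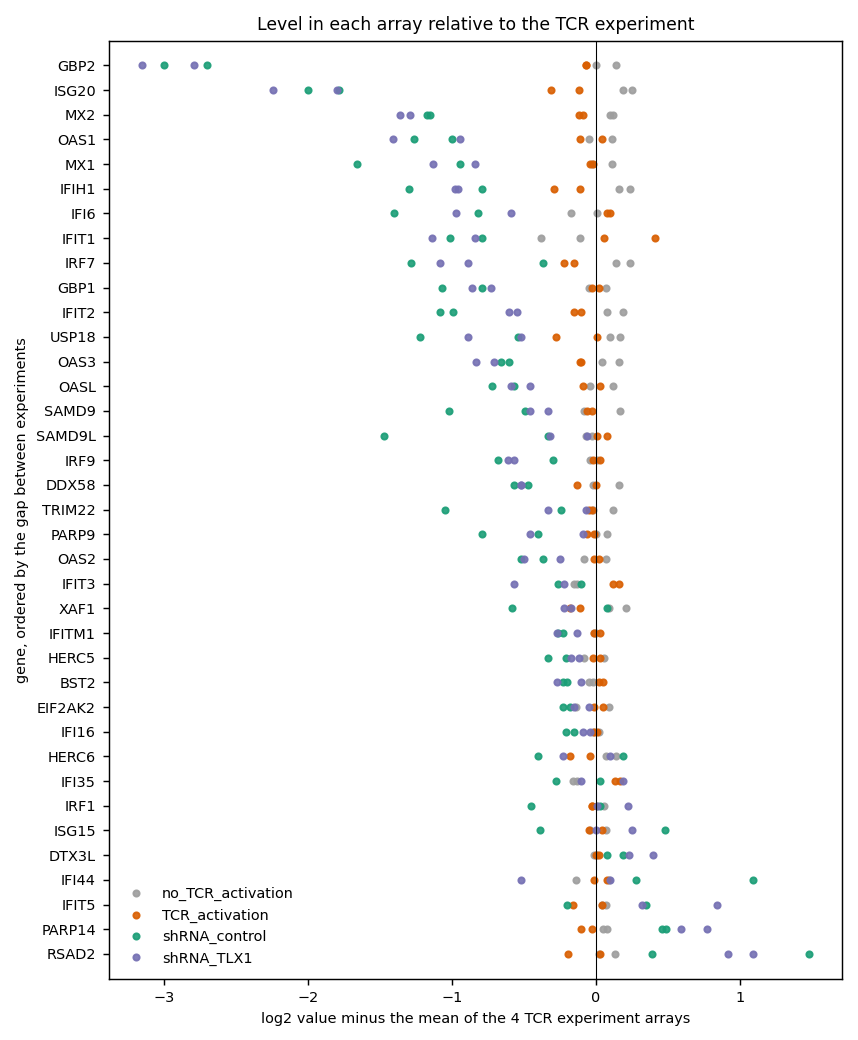
Log2 value of each of the 37 tested genes in each array minus the mean of the 4 TCR experiment arrays for that gene, ordered by the gap between experiments. Grey and orange points are the TCR experiment, green and purple the hairpin experiment. GBP2 and ISG20 lie furthest to the left and RSAD2 furthest to the right.

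The rest of the pathway was read from 76 further genes, of which 57 were tested. Of the 10 interferon ligand genes listed, 9 were too dim to test, and IFNB1 and IFNG read 3.72 to 4.06 and 3.49 to 3.82 on all arrays. The lambda interferon gene IFNL1 read 6.28 to 6.52 in the TCR experiment. It read 6.06 and 6.54 with the control hairpin and 5.77 and 5.84 with the TLX1 hairpin. That change of -0.49 had an unadjusted limma p under 0.05, and ranged from -0.73 to -0.25 with an array left out. All 6 receptor genes were tested, and the type I receptor chains differed by 0.09 (IFNAR1) and 0.28 (IFNAR2) with co-culture and by 0.18 and -0.07 with the TLX1 hairpin.

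In neither comparison did any of the 57 genes pass over all genes by limma, while at an unadjusted p under 0.05 the TCR comparison had 4 above 0 and 4 below (against 3.98% and 3.43% of all genes), and the hairpin comparison 7 and 3 (against 4.21% and 4.77%). The smallest p in the TCR comparison was that of SOCS3, a feedback inhibitor of JAK signalling, which read 8.86 and 8.82 without co-culture and 7.73 and 7.83 after it (change -1.06, limma adjusted p = 0.0725, range 0.000288 to 0.702 over the alternatives). PTPN6, the phosphatase SHP-1, read 7.78 and 7.78 against 8.71 and 8.74 (change 0.94, adjusted p = 0.102, range 0.000385 to 0.735). The sensing kinase TBK1 differed by -0.33 and JAK2 by -0.33. In the hairpin comparison SLFN5, a Schlafen gene read by an _x_at probe set, gave 7.34 and 7.51 against 8.48 and 9.30 (change 1.47, limma adjusted p = 0.147). Its other kept probe sets gave changes of 1.69 to 2.69. The probe set with a change of 1.84 lacks that suffix and was above the median on all 8 arrays. EPSTI1 read 6.23 and 5.24 against 7.45 and 7.21 (change 1.59, limma adjusted p = 0.148). The groups of both genes did not overlap. Without shRNA_control replicate 1 both passed, with changes of 2.08 for EPSTI1 (adjusted p = 0.00151) and 1.38 for SLFN5 (0.0350), in ranges of 0.00151 to 1 and 0.0350 to 1 over the alternatives. STAT3 differed by 0.62 (adjusted p = 0.148) and IRF8, a myeloid and lymphoid interferon regulatory factor, by -1.03 (adjusted p = 0.294).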

How the data were processed

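Expression was measured on 8 single-colour arrays in 4 groups of 2, grouped by the sample titles. The deposited table held log2 values that the authors made with RMA in affy (R 2.9.0), per the submitters' processing notes; background and summary settings are not given in the sources used here. All arrays shared a lowest value of 2.15 and a highest of 14.3, so a change in the total of all genes is not visible here, and the number of arrays limits the precision.

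Of 54675 probe sets, 41097 had 1 symbol in the platform annotation, 1801 several and 11777 none; the last 2 kinds were not named. A probe set was kept when above the array median in at least 2 arrays, and the kept one with the highest mean stood for each of 13102 genes. The test was limma 3.58.1 (R 4.3.3): 1 mean per group, eBayes, Benjamini-Hochberg over all genes, threshold 0.05. Residual degrees of freedom were 4. The code was tested on simulated data.

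Members and lists were chosen with earlier results of these data known. Named are all members, by role, and from the 76 pathway genes the 4 with the smallest p per comparison, TLX1, and a few receptor, ligand and marker genes chosen after their values were seen. Alternatives covered filters, probe set choice, eBayes settings, array weights, the 2 groups alone, centring, the replicate number as a block, and each array left out.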

Additional observations from a re-analysis of the deposited data

How the results depend on the processing

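With the mean of probe sets, with trend and robust eBayes or with centred arrays, 0 of the 37 members passed in any comparison. Without the dim filter 0 of 40 members did. In the TCR comparison the count of all genes was 81, and 25 with the stricter dim filter, 866 with the 2 groups alone, 1350 with array weights, 146 with each probe set on its own and 29 to 217 with an array left out. Its members past the threshold were 3 with the 2 groups alone and 6 with array weights. In the hairpin comparison the count was 12, and 0 with the 2 groups alone, 1 with array weights, 23 with each probe set on its own and 0 to 1796 with an array left out, where members numbered 0 to 8. For the difference of both changes the count was 50, and 25 with the stricter filter, 92 with each probe set on its own and 14 to 908 with an array left out, where members numbered 0 to 5. The cause was not tested.

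Replicate numbers are shared by the groups but the labels do not say that they pair arrays. The deviations of same-numbered arrays correlated at -0.14 in the TCR and 0.35 in the hairpin experiment. With the replicate number as a block, 73 and 9 genes passed in the TCR and hairpin comparisons and 59 for their difference, with 0 members in each. A crossed pairing as the block, chosen after seeing the data, gave 25 and 0 genes.

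With 2 arrays a group, the 95% intervals of 3 members in the hairpin comparison reach beyond 2-fold.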
